A study of Mus musculus with 6 samples.

Results

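The complement system was read through 9 genes in 2 mouse cell lines, 2H-11 and SVEC4-10. The genes encode the initiating proteases C1ra and C1s1, the components C4b, C3 and Cfb, the soluble inhibitor Serping1 and the membrane regulators Cd55, Cd59a and Cd46. They were taken by symbol from the deposited gene table, where each matched 1 row of 34724 genes. Both lines are adult C3H/HeJ mouse cells transformed with SV40, from the axillary lymph node, and no treatment is named for either. In the labels 2H-11 stands for tumor endothelium and SVEC4-10 for normal endothelium. With 1 line for each status, what goes with the tumor label and what is a trait of the line cannot be told apart. Each line gave 3 libraries of native RNA read on a nanopore instrument. The labels do not say whether the 3 were grown separately, so a p-value here speaks of the spread over libraries, and that spread may be technical.

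Complement is a cascade of plasma and tissue proteins that marks targets for removal and can open pores in membranes. In the classical pathway C1q bound to a target switches on C1r and then C1s, which cuts C4 and C2; in the alternative pathway factor B pairs with C3b. Both routes cut C3, and host cells hold the cascade back with soluble inhibitors and with surface proteins such as CD55 and CD59. The liver makes most plasma complement, and stromal, endothelial and mesothelial cells also make components locally.

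Library totals were between 3628400 and 16798666 counts, the largest being SVEC4-10 replicate 3. Levels are given as counts per 1000000 counts of the library (CPM), with the SD over 3 libraries. Fold changes are 2H-11 over SVEC4-10 from edgeR's quasi-likelihood test on counts, and a gene was called at a Benjamini-Hochberg adjusted p under 0.05 over the 13187 genes tested. Pan-endothelial markers were scarce in both lines: 6 of 12, with Vwf and Cldn5, were at 0 in each library, while Pecam1 had 1 count in all and Cdh5 had 2, and the list summed to 12.2 to 19.2 CPM in 2H-11 and 2.80 to 4.13 CPM in SVEC4-10. Eng, the most abundant of these markers (9.61 ± 2.60 CPM in 2H-11), and Egfl7 were higher in 2H-11. The other 10 had at most 11 counts each over all libraries, and both lines are called by name.

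Among the 9 members, the component genes that could be tested were lower in 2H-11 and the C1 inhibitor gene was higher. Of the 6 members with enough counts to be tested, C3, C1s1, C1ra and Cd59a were lower in 2H-11, Serping1 was higher, and Cd55 did not pass the threshold. Among all genes tested 36.2% were called, 20.1% higher and 16.2% lower, and 24.9% were called with at least a 2-fold difference. The 5 called members differed by 2.27-fold to 49.8-fold. Their 3 libraries did not overlap between the lines, which also held for Cd55 and for 46.8% of all genes tested. The other 3 members, C4b, Cfb and Cd46, stayed below the filter on low counts and are described by their reads. These are bulk samples, so fewer cells of a type and less RNA per cell cannot be told apart.

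**Figure D1:**
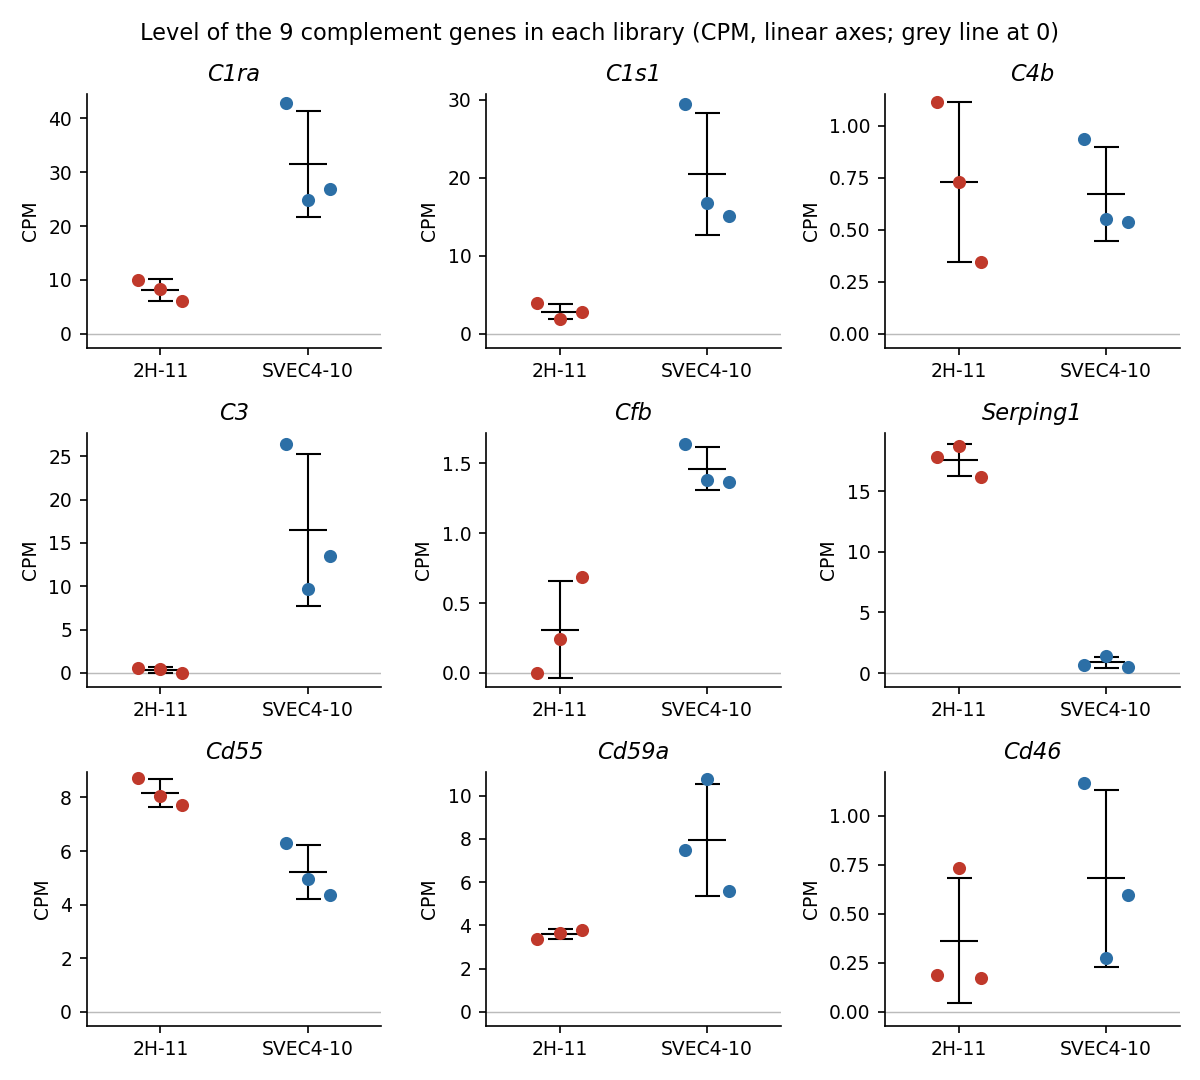
Level of each member in the 3 libraries of 2H-11 (red) and of SVEC4-10 (blue), in CPM on linear axes, from replicate 1 at the left to replicate 3 at the right within a line; black bars are the mean and SD (n = 3). C1ra, C1s1 and C3 sit far lower in 2H-11, Serping1 sits far higher, and C4b and Cd46 overlap; SVEC4-10 replicate 1 is the highest library for C1ra, C1s1 and C3.

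Sequence before the start of a gene is shown for C3, C1s1 and Cd59a, the members that were lower in 2H-11 and whose 250 bases before a RefSeq start held no annotated exon. The bases are the reference sequence of GRCm38.p6 from RefSeq, 5′ to 3′ on the strand of the gene, and the libraries come from another strain. They lie at chr17:57228137-57228386 on the minus strand for C3, chr6:124542360-124542609 on the minus strand for C1s1 and chr2:104095551-104095800 on the plus strand for Cd59a. Capitals mark matches on either strand to 1 of 4 patterns: TTCNNNGAA for GAS, the gamma interferon element; GAAA, 2 free bases and GAAA for ISRE, the type I interferon element; GGG, 5 free bases and CC, a loose pattern for NF-kB; and TTGCNNAA for C/EBP.
C3: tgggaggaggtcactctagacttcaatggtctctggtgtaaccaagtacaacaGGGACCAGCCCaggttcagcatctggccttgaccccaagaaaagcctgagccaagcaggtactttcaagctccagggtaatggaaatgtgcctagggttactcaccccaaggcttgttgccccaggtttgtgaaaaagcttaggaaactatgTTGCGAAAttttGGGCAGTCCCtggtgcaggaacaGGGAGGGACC
C1s1: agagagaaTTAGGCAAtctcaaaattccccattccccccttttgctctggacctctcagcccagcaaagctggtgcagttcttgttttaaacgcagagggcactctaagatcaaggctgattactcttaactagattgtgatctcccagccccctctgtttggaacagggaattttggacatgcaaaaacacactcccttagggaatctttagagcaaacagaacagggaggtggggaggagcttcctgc
Cd59a: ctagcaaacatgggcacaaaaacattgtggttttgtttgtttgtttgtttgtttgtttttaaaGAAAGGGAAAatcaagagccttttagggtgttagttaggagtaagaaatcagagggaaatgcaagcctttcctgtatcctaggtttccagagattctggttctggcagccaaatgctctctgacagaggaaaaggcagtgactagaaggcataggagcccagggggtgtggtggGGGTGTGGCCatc
The C3 window held 1 C/EBP match, TTGCGAAA at -45 to -38 from the start, and 4 NF-kB matches, of which 2 overlap each other. The C1s1 window shown held 1 C/EBP match, TTAGGCAA at -242 to -235. The window of another RefSeq start of C1s1, not shown because it held an annotated exon, had no C/EBP match. It had 1 NF-kB match at -35 to -26. The Cd59a window held 1 ISRE match, GAAAGGGAAA at -187 to -178, and 1 NF-kB match. Of 32851 RefSeq windows of this length, 9.56% held the C/EBP letters, 45.8% the NF-kB letters, 7.02% the GAS letters and 2.98% the ISRE letters. A RefSeq window was found for 6 of the 9 members. Over all RefSeq starts of these 6, 5 held the NF-kB letters, 2 the C/EBP letters, 1 the ISRE letters and 0 the GAS letters. Counted the same way over 27025 genes, 48.7% held the NF-kB letters, 10.8% the C/EBP letters, 3.46% the ISRE letters and 8.13% the GAS letters. A match says that the letters are present, not that a factor binds there.

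The paired proteases that start the classical pathway were both lower in 2H-11. C1ra, which activates C1s (ENSMUSG00000055172, chromosome 6, 124512405 to 124523443 in GRCm38), stood at 10.0, 8.28 and 6.01 CPM in 2H-11 and at 42.8, 24.8 and 26.8 CPM in SVEC4-10. Every 2H-11 library lay below every SVEC4-10 library, and SVEC4-10 replicate 1 was the highest. The fold change was 4.11 downward (log2 fold change -2.04, SE 0.26, adjusted p = 6.48e-06), with line means of 8.11 ± 2.02 and 31.5 ± 9.84 CPM. C1s1, which cuts C4 and C2 (ENSMUSG00000038521, chromosome 6, 124530345 to 124542359), stood at 3.91, 1.95 and 2.75 CPM in 2H-11 and at 29.5, 16.8 and 15.1 CPM in SVEC4-10. It too was lower without overlap, and highest in SVEC4-10 replicate 1. Its fold change was 7.30 downward (log2 fold change -2.87, SE 0.33, adjusted p = 1.84e-06). Without SVEC4-10 replicate 1 the log2 fold change was -1.86 for C1ra and -2.62 for C1s1.

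C1ra and C1s1 lie tail to tail on opposite strands with 6901 bases between them, and each has a close copy nearby. The longest C1ra and C1rb transcripts of the annotation matched at 97.9% over 2431 bases, and those of C1s1 and C1s2 at 95.9% over 2643 bases. C1rb had 4 counts in all, 1 in SVEC4-10 replicate 1 and 3 in SVEC4-10 replicate 3, and C1s2 had 0 counts in every library. How the authors' counting placed reads between such copies is not given in the sources used here, so the counts of C1ra and C1s1 are uncertain to that extent. Within a library, C1ra made up 72.0%, 81.0% and 68.6% of the reads of C1ra and C1s1 together in 2H-11. In SVEC4-10 it made up 59.2%, 59.6% and 64.0%. The shares did not overlap between the lines, but the exact 95% binomial intervals of some libraries did: the interval was 54.1% to 80.9% in 2H-11 replicate 3, which rested on 51 reads, and 60.3% to 67.5% in SVEC4-10 replicate 3, which rested on 705 reads. Summed over libraries the share was 73.2% (65.8% to 79.7%) in 2H-11 and 62.1% (59.3% to 64.9%) in SVEC4-10. These intervals cover counting error only.

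Among the components that follow, C2 was lower in 2H-11 and C4b could not be tested. C4b, a form of C4 (ENSMUSG00000073418, chromosome 17, 34728380 to 34743882), had 6, 3 and 2 counts in 2H-11 and 4, 2 and 9 in SVEC4-10. In CPM the lines overlapped, at 0.343 to 1.12 and 0.536 to 0.935. The ratio of summed counts per line total was 0.845 for SVEC4-10 over 2H-11, with an exact 95% counting interval of 0.363 to 2.03. C4a, its near copy, was not analysed here under its own symbol, and whether reads of C4a are among those counted for C4b is not known. C2, the protease that joins C4b in the C3 convertase (ENSMUSG00000024371, chromosome 17, 34862604 to 34898265), is not one of the 9 and was 6.48-fold lower (log2 fold change -2.70, SE 0.40, adjusted p = 2.68e-05). It stood at 1.86, 0.731 and 1.54 CPM in 2H-11 and at 12.2, 7.17 and 7.38 CPM in SVEC4-10, again without overlap. The 3 chains of C1q, the recognition part of C1 that macrophages make, had 0 counts in every library.

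C3, the component on which all routes of the cascade meet, showed the largest fold change of the 6 tested members. C3 (ENSMUSG00000024164, chromosome 17, 57203970 to 57228136) had 3, 2 and 0 counts in 2H-11, or 0.558, 0.487 and 0 CPM. In SVEC4-10 it had 113, 35 and 227 counts, or 26.4, 9.65 and 13.5 CPM. All SVEC4-10 libraries lay above all 2H-11 libraries, and SVEC4-10 replicate 1 was the highest. A count of 0 in 2H-11 replicate 3 allows a level of up to 0.515 CPM there, taking the limit as 3 counts. C3 was 49.8-fold lower in 2H-11 (adjusted p = 2.36e-07), a log2 fold change of -5.64 with an SE of 0.56. It moved with the few counts in 2H-11: it was 78.0-fold without 2H-11 replicate 1 and 32.3-fold without 2H-11 replicate 3, and 38.3-fold without SVEC4-10 replicate 1.

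Cfb, the factor B protease of the alternative pathway (ENSMUSG00000090231, chromosome 17, 34856374 to 34862518), had few reads. It had 0, 1 and 4 counts in 2H-11 and 7, 5 and 23 in SVEC4-10, or 0, 0.244 and 0.687 CPM against 1.64, 1.38 and 1.37 CPM. The libraries did not overlap. The ratio of summed counts per line total was 4.34 for SVEC4-10 over 2H-11, with an exact 95% counting interval of 1.69 to 14.2. In a fit without the filter on low counts Cfb was 4.77-fold lower in 2H-11 (adjusted p = 0.0121), where 11.9% of 26293 genes were called lower. That edgeR fit is more permissive than the main test. C1ra had nearly the same SE in both (0.270 and 0.265), yet an adjusted p of 1.96e-13 there against 6.48e-06. A pass in it alone is thus weaker than a call. In the authors' deposited table, by DESeq2, its log2 fold change was -1.78 with an adjusted p of 0.0565. Cfb begins 85 bases after the end of C2 on the same strand, and reads that run over this border could be counted for either gene. Properdin, Cfp, which stabilises the alternative convertase, had 4 counts in 2H-11 and 26 in SVEC4-10 and did not pass in the fit without the filter (adjusted p = 0.0585). Adipsin, Cfd, had 1 count in all.

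Serping1, the C1 inhibitor that inactivates C1r and C1s, went the opposite way to C1ra and C1s1. Serping1 (ENSMUSG00000023224, chromosome 2, 84765387 to 84775444) had 96, 77 and 94 counts in 2H-11 and 3, 5 and 9 in SVEC4-10. This is 17.9, 18.8 and 16.1 CPM against 0.701, 1.38 and 0.536 CPM, a tight group in 2H-11 far above all SVEC4-10 libraries. It was 22.04-fold higher in 2H-11 (log2 fold change 4.46, SE 0.38, adjusted p = 3.17e-08). Without SVEC4-10 replicate 3, the deepest library, it was 15.4-fold higher (adjusted p = 2.45e-06). Within each library, where no scaling enters, Serping1 made up 56.1%, 64.7% and 64.8% of the reads of Serping1, C1ra and C1s1 together in 2H-11. In SVEC4-10 it made up 0.962%, 3.21% and 1.26%. Per read of C1ra and C1s1 there were 1.28, 1.83 and 1.84 reads of the inhibitor in the 2H-11 libraries. In those of SVEC4-10 there were 0.00971, 0.0331 and 0.0128.

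**Figure D2:**
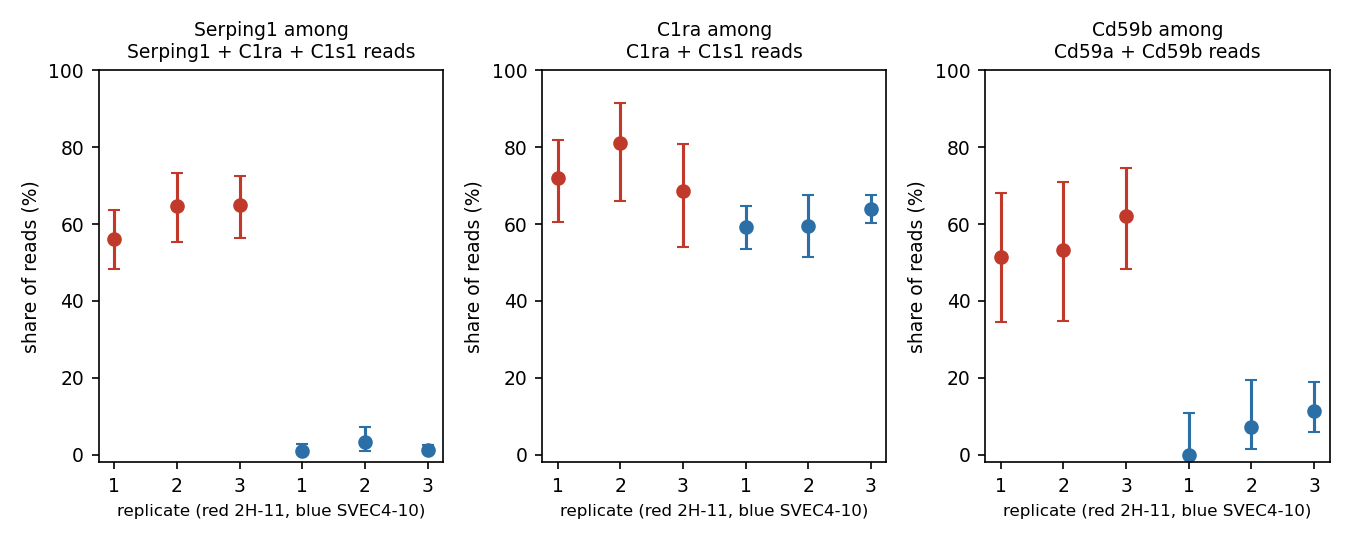
Share of reads (%) within each library for Serping1 among Serping1, C1ra and C1s1, for C1ra among C1ra and C1s1, and for Cd59b among Cd59a and Cd59b, with exact 95% binomial intervals for counting error only (red, 2H-11; blue, SVEC4-10). The Serping1 and Cd59b shares of the lines stand far apart, while the C1ra shares lie closer and the intervals of some libraries overlap between the lines.

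Of the other soluble regulators, clusterin had more reads in SVEC4-10. Clu, which encodes clusterin, an inhibitor of the pore complex, had 6 counts in 2H-11 and 72 in SVEC4-10 and was below the filter. In the more permissive fit without the filter it was 7.56-fold lower (adjusted p = 3.29e-05). Factor I, the protease that breaks down C3b, had 0 counts in every library under its symbol Cfi, as had vitronectin, Vtn, while C4bp had 2 counts in all and Cpn1 had 3.

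The membrane regulators did not differ in one direction: of 4 tested, 1 was higher in 2H-11, 2 were lower and 1 did not pass. Cd55, decay-accelerating factor, which dissolves the C3 convertases (ENSMUSG00000026399, chromosome 1, 130439027 to 130462744), was at 8.74, 8.04 and 7.72 CPM in 2H-11 and at 6.31, 4.96 and 4.35 CPM in SVEC4-10. The 2H-11 libraries all lay above those of SVEC4-10, yet the test was not passed (1.51-fold, log2 fold change 0.59, SE 0.30, adjusted p = 0.132). Over the 14 other settings its adjusted p was between 0.0614 and 0.416, and it was above 0 on the log2 scale in each. Cd59a, which blocks the pore complex (ENSMUSG00000032679, chromosome 2, 104095801 to 104115354), was at 3.35, 3.65 and 3.78 CPM in 2H-11 and at 7.48, 10.7 and 5.60 CPM in SVEC4-10. It was 2.27-fold lower without overlap (log2 fold change -1.18, SE 0.35, adjusted p = 0.0123). The call was lost without SVEC4-10 replicate 2, its highest library (adjusted p = 0.0551, range over the settings 0.00303 to 0.0551). Cd46, a cofactor for C3b breakdown that in mice is best known from the testis (ENSMUSG00000016493, chromosome 1, 195036826 to 195092249), had 1, 3 and 1 counts in 2H-11 and 5, 1 and 10 in SVEC4-10. The lines overlapped in CPM, at 0.172 to 0.731 and 0.276 to 1.17, and the ratio of summed counts was 1.98 for SVEC4-10 over 2H-11 (exact 95% counting interval 0.694 to 6.92).

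Cd59a and its tandem copy Cd59b moved in opposite directions. Cd59b (ENSMUSG00000068686, chromosome 2, 104069849 to 104091187) lies on the same strand with 4613 bases between the genes. It had 19, 17 and 36 counts in 2H-11 and 0, 3 and 12 in SVEC4-10, which is 3.53, 4.14 and 6.18 CPM against 0, 0.827 and 0.714 CPM. It was 7.34-fold higher in 2H-11 (log2 fold change 2.88, SE 0.53, adjusted p = 0.000292). Cd59b therefore made up 51.4%, 53.1% and 62.1% of the reads of the pair in 2H-11 and 0%, 7.14% and 11.3% in SVEC4-10. The widest reach of the exact 95% intervals was down to 34.4% in 2H-11 and up to 19.5% in SVEC4-10. The pair summed to 127 reads in 2H-11 and 180 in SVEC4-10, out of unequal line totals of 15306470 and 24705490 counts. In mean CPM, Cd59a and Cd59b stood at 3.59 and 4.62 in 2H-11 and at 7.94 and 0.514 in SVEC4-10. The longest transcripts of the pair matched at 83.2% over 739 aligned positions, which took in 39.1% of the Cd59a transcript, so some reads could have been placed on the wrong copy.

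Cr1l, known as Crry, a membrane cofactor found in rodents (ENSMUSG00000016481, chromosome 1, 195097382 to 195131586), lies 5132 bases from Cd46. It stood at 48.0, 43.6 and 36.2 CPM in 2H-11 and at 58.0, 70.0 and 54.6 CPM in SVEC4-10. It was 1.53-fold lower without overlap (log2 fold change -0.61, SE 0.20, adjusted p = 0.0224; range over the settings 0.0102 to 0.0758). The call was lost without 2H-11 replicate 2 (adjusted p = 0.0708), without 2H-11 replicate 3 (0.0627), without SVEC4-10 replicate 2 (0.0758) and with library size alone as scaling (0.0559). Cd55b, the copy of Cd55, was at 0 counts throughout, as were Susd4 and Csmd1; the longest Cd55 and Cd55b transcripts matched at 91.6% over 1157 bases. The 8 membrane regulators summed to 54.1 to 63.8 CPM in 2H-11 and 65.9 to 86.8 CPM in SVEC4-10.

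**Figure D3:**
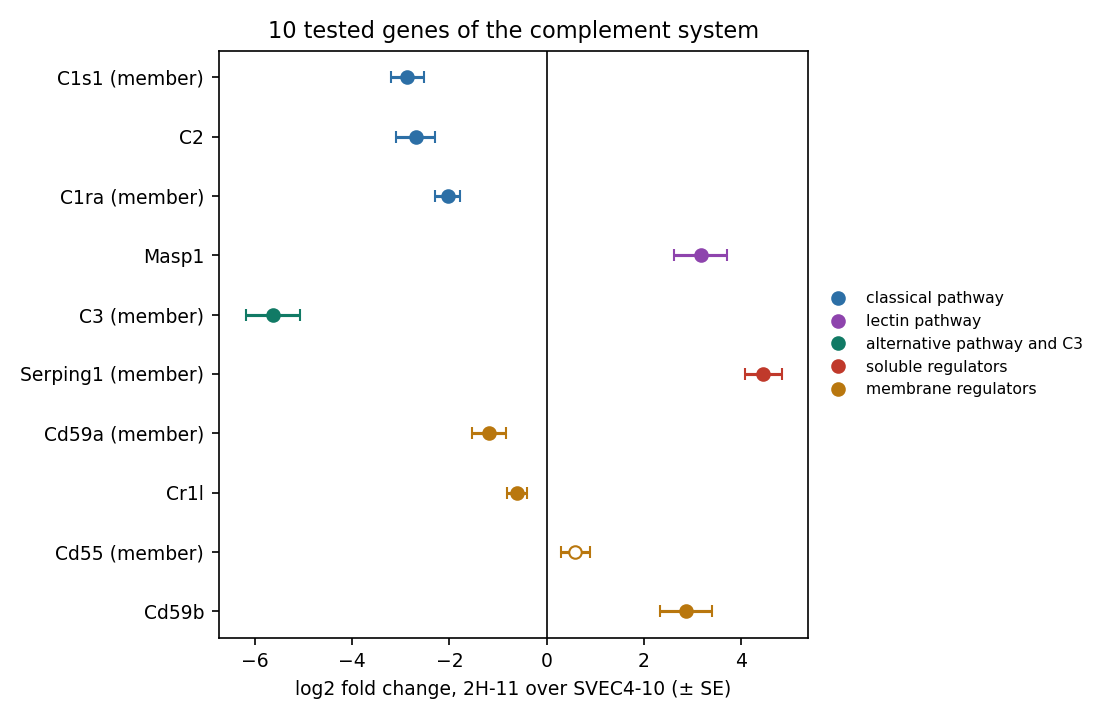
Log2 fold change of 2H-11 over SVEC4-10, with its SE, for 10 tested genes of the complement list, coloured by role; filled points passed an adjusted p under 0.05 and the open point did not. Classical pathway genes, C3, Cd59a and Cr1l lie left of 0, and Serping1, Masp1 and Cd59b lie right of it.

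Across 54 genes of the complement list, 53 were found in the table, 33 had a count in at least 1 library and 11 were tested. Of these 11, 3 were higher in 2H-11, 7 were lower and 1 did not pass, with a median log2 fold change of -1.18 beside 0.00 over all genes tested. The shares over all genes tested were 20.1% higher and 16.2% lower. However, 6 of the 11 are members already described. Leaving the members out, 5 tested genes remained, 2 higher and 3 lower, and their median was -0.61 on the log2 scale. The direction of the whole list thus rests largely on the members. All 3 classical pathway genes tested were lower, and that role summed to 10.6 to 16.9 CPM in 2H-11 and 49.3 to 85.5 CPM in SVEC4-10. In the lectin pathway, which starts from sugar-binding proteins, Masp1 was the one gene tested. This protease (ENSMUSG00000022887, chromosome 16, 23449417 to 23520815) stood at 3.91, 4.14 and 2.40 CPM in 2H-11 and at 0.234, 0.827 and 0.238 CPM in SVEC4-10. It was 9.02-fold higher without overlap (log2 fold change 3.17, SE 0.54, adjusted p = 0.000128), and 5.90-fold higher without SVEC4-10 replicate 3 (adjusted p = 0.0103). Its SVEC4-10 level rested on 8 counts. The other 7 lectin pathway genes had at most 1 count each.

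Late and receptor genes were close to absent from the reads. Of 7 terminal pathway genes 0 were tested, and the role summed to at most 0.687 CPM in any library of 2H-11 and 1.40 CPM in any of SVEC4-10; C6, C7, C8a and C8b had no count, Hc had 1 and C9 had 2. C8g, the small chain of C8, had 6 counts in 2H-11 and 11 in SVEC4-10. Of 9 receptor genes 0 were tested. C3ar1, the receptor for the C3a fragment, had 13 and 15 counts, and Itgb2, the shared chain of the leukocyte complement receptors, had 1 and 17. In the more permissive fit without the filter Itgb2 was 8.28-fold lower in 2H-11 (adjusted p = 0.0451). This lies close to the threshold and rests on 1 count in 2H-11. In the same fit C8g (adjusted p = 0.635) and C3ar1 (adjusted p = 0.900) did not pass. Cr2, C5ar1, C5ar2 and Cd93 had at most 2 counts each.

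Levels of different genes were compared per kb of the longest coding transcript in the annotation. In 2H-11 the order was Serping1 at 9.95 ± 0.754 CPM per kb, then Cd55 at 3.22 ± 0.206, C1ra at 2.72 ± 0.679, Cd59a at 1.99 ± 0.122 and C1s1 at 0.973 ± 0.334, with C4b, Cfb, C3 and Cd46 between 0.136 and 0.0577. In SVEC4-10 the order was C1ra at 10.6 ± 3.30 CPM per kb, C1s1 at 6.95 ± 2.66, Cd59a at 4.40 ± 1.44, C3 at 3.22 ± 1.71 and Cd55 at 2.06 ± 0.397, then Cfb, Serping1, C4b and Cd46 between 0.531 and 0.108. In 2H-11 Serping1 lay above Cd55, Cd59a above C1s1 and C1s1 above C4b with no overlap over libraries. In SVEC4-10 that held for Cd55 over Cfb and Serping1 over C4b. All other neighbours in either order overlapped per kb. Serping1 thus moved from the top of the order in 2H-11 to the seventh place in SVEC4-10. A direct RNA read stands for 1 molecule whatever its length, so these values are lower for long transcripts such as C3 than a count of molecules would be. In CPM without division by length, C3 (16.5 ± 8.78) came before Cd59a (7.94 ± 2.61) in SVEC4-10. Some separations per kb also depended on the division. In CPM, Serping1 (0.536 to 1.38) overlapped C4b (0.536 to 0.935) in SVEC4-10. In 2H-11 Cd59a (3.35 to 3.78 CPM) overlapped C1s1 (1.95 to 3.91 CPM). There C1ra (6.01 to 10.0 CPM) lay above Cd59a without overlap.

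Values for factors known to act on complement genes and for other cell types are given beside these results; their part in them was not tested. The 8 factors Stat3, Irf1, Nfkb1, Nfkb2, Rela, Relb, Cebpb and Cebpd had adjusted p between 0.0745 and 0.836 and were not called. Of the mesothelial markers 6 of 7 tested were lower in 2H-11 and 1 was higher, and the 9 genes summed to 58.5 to 72.7 CPM in 2H-11 and 3400 to 4298 CPM in SVEC4-10, with Gpm6a, Krt8 and Lrrn4 at 0 in 2H-11. Upk3b and Upk1b were the most abundant of them in SVEC4-10, and Msln was in 2H-11. Fibroblast and mural markers summed to 1800 to 2301 and 2088 to 2196 CPM, with Acta2 the most abundant, and of 8 tested 5 were higher and 1 lower. Hepatocyte markers were at or near 0, with at most 0.244 CPM summed over 7 genes in any library; Alb had 1 count in all and Apoa1, the most abundant, had 2. Macrophage markers summed to 18.6 to 24.2 and 10.7 to 16.5 CPM; Ptprc had 2 counts in all, Adgre1 had 0, and Cd14, the most abundant, was not called.

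The genes whose profiles lay nearest to that of C3 were found by the Euclidean distance between centred log2 CPM values over the 6 libraries, among 10148 tested genes with an Ensembl identifier. They were Cxadr (distance 0.962), Gnai1 (1.00), Crb2 (1.00), Fgf5 (1.16) and Rhbdl3 (1.17). Each was lower in 2H-11, by 31.7-fold for Cxadr, 53.3-fold for Gnai1, 94.97-fold for Crb2, 58.2-fold for Fgf5 and 45.3-fold for Rhbdl3. The 6 libraries are 2 lines of 3, so a gene with a like step between the lines lies near by this measure.

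**Figure D4:**
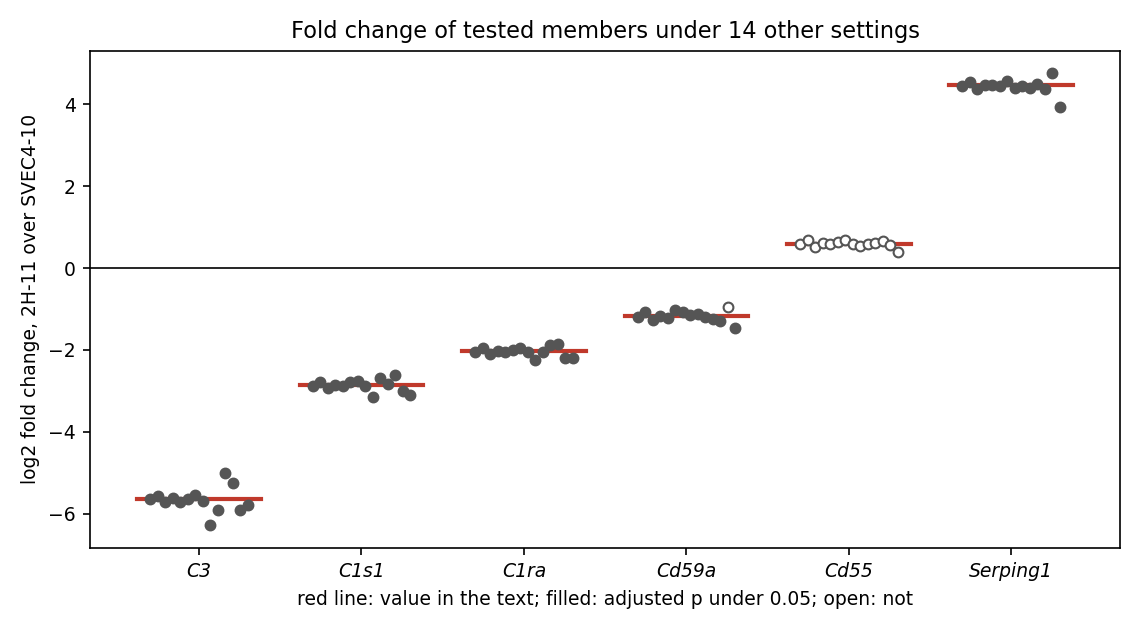
Log2 fold change of 2H-11 over SVEC4-10 for the 6 tested members under 14 other settings (points) beside the value in the text (red line); filled points passed an adjusted p under 0.05 and open points did not. C3 varies most, between -6.29 and -5.01, Cd59a has 1 open point and all points of Cd55 are open.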

How the data were processed

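Direct RNA libraries were prepared from 1 ug of total RNA with the kit SQK-RNA002, per the labels' protocols, with genome builds mm10 and GRCm38 per the submitters' processing notes. Aligner, counter, annotation and strand use were not given in the sources used here. Raw counts per gene and CPM, which scale each library to 1000000 counts, were deposited by the authors in 1 table. For 16107 genes it also holds the authors' DESeq2 results: an adjusted p-value and a log2 change that is positive where 2H-11 is higher. After 13 broken lines naming no gene were left out, 34724 genes remained.

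Counts were tested with edgeR 4.0.16 in R 4.3.3: filterByExpr (minimum count 10, minimum total 15), TMM, and the quasi-likelihood test with line as its only term, adjusted over 13187 genes. In counts simulated at these library sizes, 50 genes were changed at each size, and 12787 genes passed the filter. The test recovered 10% of those at 1.5-fold, 58% at 2-fold, 90% at 4-fold and 96% at 8-fold, with 6 false calls. The simulation gave all genes the same dispersion and changed few of them, whereas 36.2% were called in the data. These rates therefore need not hold for the data. Single low genes are given as ratios of summed counts with exact 95% intervals. Libraries of a line differed by more than sampling noise (chi-square per degree of freedom 5.78 to 18.1). Coordinates and lengths came from GENCODE M21, transcript matches from blastn 2.17.0.

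The members and gene lists were chosen with earlier results of these data known. The rule named all members, complement genes that were tested (others by their counts), transcription factors that were called, the most abundant marker per list, the 5 genes nearest to C3 and genes within 100 kb of called members. Alternatives were RLE factors, library size alone, no filter, 20 counts in at least 3 libraries, DESeq2 1.42.0, limma-voom 3.58.1, Ensembl identifiers only, a replicate block and leaving out each library. Of the genes this rule names, 2 are not reported here; counts over whole lists include them.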

Additional observations from a re-analysis of the deposited data

How the results depend on the processing

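Of 152 values of the 11 tested complement genes under other settings, 147 kept their direction and their side of the threshold, 5 kept their direction and lost the call, and 0 reversed; the 5 are 1 of Cd59a and 4 of Cr1l. Leaving out 1 library gave log2 fold changes of -1.47 to -0.94 for Cd59a, the value of -0.94 being without SVEC4-10 replicate 2. With 20 counts required in at least 3 libraries 1 complement gene was higher in place of 3, because Masp1 and Cd59b were no longer tested. Over all genes, Ensembl identifiers alone gave 1657 higher in place of 2645, with fewer genes tested, and shifted the fold changes of the same genes by 0.10 on the log2 scale; library size alone shifted them by 0.09. The replicate numbers are not said to mark a shared culture or run, and same-numbered libraries deviated from their line means with correlations of -0.018 to 0.0505. With a replicate block 2491 genes were higher and 1970 lower, not every library correlated best with its own number, and no call of a complement gene changed. Depth limits C4b, Cfb, Cd46 and the terminal and receptor genes, for which 0 counts over a line allow up to 0.196 CPM in 2H-11 and up to 0.121 CPM in SVEC4-10.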

Other observations

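Genes around the called members are given as values, beside 36.2% called over all genes tested. Within 100 kb of C3, the genes Tnfsf9, Gpr108 and Trip10 were tested and 0 were called, with adjusted p of 0.424, 0.720 and 0.133, while C3 itself was 49.8-fold lower in 2H-11. Around C1ra and C1s1, the gene C1rl, which encodes a C1r-like protease, was at 4.59 ± 1.16 CPM in 2H-11 and at 3.31 ± 2.26 CPM in SVEC4-10 (adjusted p = 0.546), and Pex5 did not pass either (adjusted p = 0.668).

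Within 100 kb of Serping1, 8 genes were tested, 0 were higher and 4 were lower in 2H-11. The shares over all genes tested were 20.1% higher and 16.2% lower. Ube2l6, the conjugating enzyme for ISG15, was 6.22-fold lower, at 39.8 ± 2.92 against 231 ± 39.4 CPM, and Selenoh, Tmx2 and Med19 were lower by 1.67-fold, 1.75-fold and 1.60-fold. Zdhhc5, Clp1, Gm19426 and Timm10 did not pass, with adjusted p between 0.292 and 0.672. Serping1 was thus the one called gene of its window that was higher. Slc43a1, in the same window, was below the filter but also had more reads in 2H-11. It had 17, 5 and 12 counts there and 2, 0 and 7 in SVEC4-10, or means of 2.15 and 0.295 CPM, without overlap. Around Cd59a, Fbxo3 was tested besides Cd59b and did not pass (adjusted p = 0.225).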
